A study of Mus musculus with 6 samples.

Results

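Replication-dependent histone genes encode the H1, H2A, H2B, H3 and H4 proteins that package newly made DNA during S phase. They were followed here in eCLIP libraries of Gtsf1, also named Asterix, which carries zinc fingers and acts in transposon silencing by piRNAs. A gene was a member when the name of an exon or pre-mRNA feature, after its class prefix, began with Hist1h, Hist2h, Hist3h or Hist4. This gave 67 of the 19612 genes with an exon or pre-mRNA feature, of which 6 encode H1, 18 H2A, 18 H2B, 12 H3 and 13 H4. They carried 86 features, 82 of exons and 4 of pre-mRNA, and 4 features that repeated the counts of an earlier feature of the same gene were counted once. This leaves out reads that had been split between copies, between 6.16% and 7.61% of the H3 reads of a library and at most 0.103% of those of any other family.

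All 6 libraries came from P19 cells, a mouse embryonal carcinoma line, transfected transiently with a plasmid for Strep-tagged mouse Gtsf1. Tagged protein therefore came from transfection in every group, inputs included, and no library came from cells without it. Crosslinked cells received ultraviolet light of 254 nm at 400 mJ, which joins RNA covalently to bound protein, and the others received none. Lysates were treated with RNase I, part was kept as input, and tagged protein was pulled down on MagStrep XT beads. There were 2 pull-downs and 2 inputs from crosslinked cells, and 1 pull-down and 1 input from cells that were not crosslinked. The labels do not say that the 2 libraries of a group came from separate cultures, so p-values measure only the spread between these libraries, which may be technical.

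The libraries held 13168593 to 18418166 reads, so that 1 read was worth between 0.0543 and 0.0759 reads per 1000000 (RPM). Ribosomal RNA took between 58.2% and 70.1% of the reads. Gtsf1 itself stood at 52.8 and 51.9 RPM in crosslinked inputs 1 and 2 and at 117 and 245 RPM in crosslinked pull-downs 1 and 2. Without crosslinking it stood at 51.9 RPM in the input and 42.5 RPM on the beads. Of 10 markers of embryonal carcinoma cells, 6 reached at least 1 RPM in all inputs, while Dppa5a, Nanog, Zfp42 and Sall4 did not. None of 10 markers of other cell types did so. The summed level of the first list was 70.8 to 92.8 RPM in the 3 inputs and 51.4 to 61.9 RPM on the beads, with no overlap. The second list summed to 0.659 to 1.03 RPM in the inputs and 2.22 to 4.05 RPM on the beads, again with no overlap, and its member Gata6 stood at 1.25 to 1.67 RPM in the pull-downs. The part of these shifts in the histone values was not tested.

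Most mRNAs end in a poly(A) tail, whereas replication-dependent histone mRNAs end in a conserved stem-loop bound by Slbp, the stem-loop binding protein. Their genes are short, mostly lack introns, and lie in clusters that are transcribed together in S phase. Core histones H2A, H2B, H3 and H4 form the nucleosome, and the linker histone H1 binds the DNA between nucleosomes. Because many copies encode nearly the same protein with nearly the same sequence, a short read often matches several of them.

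The genes lay where the major mouse histone clusters are annotated. By RefSeq coordinates on GRCm38.p6, the assembly that mm10 represents, 66 of the 67 genes matched 1 gene each, and Hist1h2ap matched more than 1 and has no coordinates here. On chromosome 13, 22 genes lay between 21715711 and 22043658 and 31 between 23531044 and 23934913. A further 10 lay on chromosome 3 between 96219885 and 96270192, 2 on chromosome 11 and 1 on chromosome 6. Only 5 of the 67 had an intron feature in the files. Pre-mRNA features held between 0.467% and 1.32% of the members' reads, so that nearly all of their signal came from exon features, which hold the coding sequence and the untranslated ends alike.

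Upstream sequence was not used to choose the members, and its motifs differ between the families. The 100 bases before the annotated start are printed for 1 gene each of H1, H2B, H3 and H4, chosen for their motifs and not for their values. Capitals mark, on either strand, the CCAAT box, the TATA box searched as TATAA, the H4 element searched as GGTCC, and the octamer motif ATTTGCAT.
Hist1h1c, chr13:23738707-23738806, plus strand: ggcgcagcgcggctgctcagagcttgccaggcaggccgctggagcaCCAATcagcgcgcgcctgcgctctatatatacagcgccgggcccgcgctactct
Hist1h2bg, chr13:23571300-23571399, plus strand: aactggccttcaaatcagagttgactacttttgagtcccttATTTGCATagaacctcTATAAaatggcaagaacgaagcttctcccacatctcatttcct
Hist1h3e, chr13:23562386-23562485, minus strand: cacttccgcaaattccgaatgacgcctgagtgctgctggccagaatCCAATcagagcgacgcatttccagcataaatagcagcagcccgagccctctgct
Hist1h4d, chr13:23581468-23581567, plus strand: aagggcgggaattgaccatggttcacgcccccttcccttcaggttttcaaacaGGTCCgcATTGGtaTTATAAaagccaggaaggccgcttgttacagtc

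The shares of promoters with each motif were counted in RefSeq windows from 250 bases before to 50 after the start, on both strands, for the 61 members with a window and for 27025 genes in all. CCAAT stood in 85.2% of member promoters against 41.1% of all, in every H1, H2A, H2B and H3 window but in only 3 of 12 H4 windows. TATAA stood in 80.3% against 28.0%. ATTTGCAT stood in 7 of 17 H2A and 7 of 16 H2B windows and in none of the others, against 1.97% of all promoters. GGTCC stood in 11 of 12 H4 windows, and its share over all members, 44.3%, was below the 48.7% of all genes. Each motif was also searched as its reverse complement, and matches of different motifs can overlap. These matches describe letters in a window and say nothing of which factors bound there.

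Histone genes as a whole took a small share of every library, and among all reads its mean was close in the crosslinked pull-downs and inputs. They held 0.0224% of the reads of crosslinked input 1 (95% Wilson interval 0.0218 to 0.0232%) and 0.0214% of crosslinked input 2 (0.0208 to 0.0221%). They held 0.0184% of crosslinked pull-down 1 (0.0177 to 0.0190%) and 0.0258% of crosslinked pull-down 2 (0.0250 to 0.0266%). One pull-down lay below both inputs and the other above both, so the groups overlapped.

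The mean share was 0.0219% ± 0.000723 in the inputs (SD, n = 2) and 0.0221% ± 0.00525 in the pull-downs (SD, n = 2), a ratio of 1.006. The pull-downs thus differed from each other by far more than their mean differed from that of the inputs (two-sided exact permutation test, p = 1.0, where 2 against 2 libraries cannot go below 0.333). Same-numbered libraries gave 0.818 for pair 1 and 1.203 for pair 2. The non-crosslinked libraries gave 0.766. Their input held 0.0193% (0.0186 to 0.0201%) and their pull-down 0.0148% (0.0142 to 0.0155%). The intervals hold for counting error alone, because PCR copies of 1 molecule are not independent.

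The denominator moved these ratios, but not which pair was higher. Among the reads of exon and pre-mRNA features alone, histone genes made up 0.366% and 0.386% of the crosslinked inputs. They made up 0.366% of pull-down 1 and 0.527% of pull-down 2, so that the pair ratios were 1.000 and 1.367. Among annotated reads without ribosomal RNA the pair ratios were 0.968 and 1.340. With each denominator pair 2 lay above pair 1. The ratio of the mean shares, 1.006 of all reads, was 1.073 among annotated reads and 1.159 among annotated reads without ribosomal RNA. Among exon and pre-mRNA reads it was 1.188. The non-crosslinked ratio, 0.766 of all reads, was 0.934 among exon and pre-mRNA reads and 1.092 among annotated reads without ribosomal RNA, so its direction turned with the denominator.

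**Figure D1:**
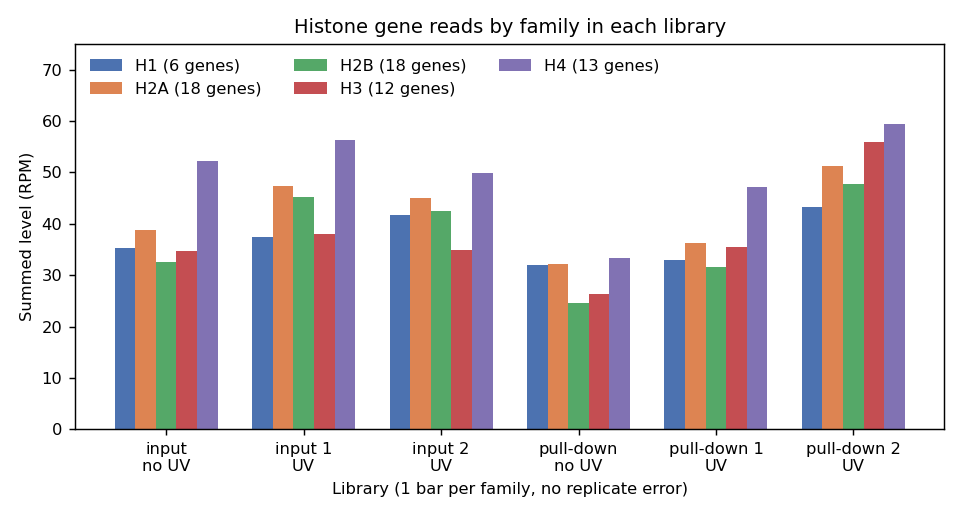
Summed level in RPM of the histone genes of each family (vertical axis) in each of the 6 libraries (horizontal axis), with 1 bar per family and library. UV marks the crosslinked libraries. Every family is higher in crosslinked pull-down 2 than in crosslinked pull-down 1, and H4 is the highest family in all 6 libraries.

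By family, H3 was the one whose pull-downs lay furthest above the inputs, and that difference was not called. The summed H3 level was 38.0 and 35.0 RPM in crosslinked inputs 1 and 2 and 35.5 and 56.0 RPM in crosslinked pull-downs 1 and 2, beside 34.6 and 26.3 RPM in the input and the pull-down without crosslinking. Pull-down 1 lay between the inputs and pull-down 2 above both. As log2(RPM + 1), a scale on which changes of low values come out too small, the difference of means was 0.28, made of -0.10 in pair 1 and 0.66 in pair 2 (two-sided exact permutation test, p = 0.667).

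H4, a core histone whose genes encode the same or nearly the same protein, was the most abundant family. Its sum was 56.3 and 49.9 RPM in the crosslinked inputs, 47.2 and 59.3 RPM in crosslinked pull-downs 1 and 2, and 52.2 and 33.3 RPM in the non-crosslinked input and pull-down. The crosslinked groups overlapped, with a log2 difference of -0.0032, and the low value was that of the non-crosslinked pull-down.

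H2A and H2B, which pair as a dimer in the nucleosome, had similar values. H2A stood at 47.4 and 45.1 RPM in the crosslinked inputs, 36.2 and 51.3 RPM in crosslinked pull-downs 1 and 2, and 38.8 and 32.1 RPM in the non-crosslinked input and pull-down. H2B stood at 45.2 and 42.5 RPM, 31.6 and 47.8 RPM, and 32.6 and 24.6 RPM in the same order. In both families pull-down 1 lay below the inputs and pull-down 2 above them, with log2 differences of -0.10 for H2A and -0.17 for H2B.

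The linker histone H1 likewise had overlapping groups. Its sum was 37.5 and 41.8 RPM in the crosslinked inputs, 33.0 and 43.3 RPM in crosslinked pull-downs 1 and 2, and 35.3 and 31.9 RPM in the non-crosslinked input and pull-down. The log2 difference of the crosslinked groups was -0.06. For H1, H2A, H2B and H4 the exact permutation p was 1.0, and adjusted over the 5 families all 5 values were 1.0. The signs of H1, H2A and H4 turned when the sums were scaled to annotated reads and fitted by edgeR, which gave 0.04, 0.01 and 0.10, and that of H2B turned to 0.17 with TMM factors.

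In that edgeR quasi-likelihood fit, an alternative chosen after the data were seen, each family's genes were replaced by their sum in the table of all genes. H3 then had a log2 ratio of 0.42 (SE 0.21, 95% interval -0.01 to 0.85), with an adjusted p of 0.210 over all genes, and was not among the 3.51% of that table called higher. With TMM factors it was 0.64 (adjusted p = 0.116, edgeR), and its size differed by pull-down. Without pull-down 1 the H3 ratio was 0.72 (adjusted p = 0.0414, edgeR), and without pull-down 2 it was 0.04 (adjusted p = 0.927, edgeR). Without TMM factors and with all 4 crosslinked libraries, H2B had the lowest ratio, -0.05 (95% interval -0.47 to 0.37). In that fit on annotated reads the adjusted p of the 4 families other than H3 ran from 0.787 to 0.974 (edgeR).

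Gene by gene, none of the histone genes passed the test in either direction. Of the 67 genes, 61 reached a mean of 1 RPM over the 4 crosslinked libraries and were tested among 8308 genes by the edgeR quasi-likelihood test. The filter left out 6, namely Hist1h1t, Hist1h2aa, Hist1h2ba, Hist2h2ab, Hist2h2be and Hist3h2ba. These had means between 0.0786 and 0.661 RPM, and Hist1h1t and Hist1h2ba are known for expression in the testis. Of the 61 tested, 0 were called higher and 0 lower at a Benjamini-Hochberg adjusted p below 0.05, beside 3.44% of all tested genes called higher and 4.42% called lower. At an unadjusted p below 0.05, 3 members were higher and 0 lower, beside 4.89% and 20.4% of all tested genes. That count depended on the scaling and on single libraries. It was 14 higher with TMM factors, beside 9.10% of all genes, and 7 with rRNA left out of library sizes, beside 6.21%. It was 7 without input 1, beside 4.94%, 1 without input 2, beside 4.41%, and 14 without pull-down 1, beside 5.09%. Without pull-down 2 it was 0 higher, beside 4.31%, and 2 lower, beside 13.3%. DESeq2 also called 0, where of the 8308 genes it called 227 higher and 13 lower. It gave 4 members higher at an unadjusted p below 0.05, beside 4.79% of all genes.

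The ratios of the histone genes were narrowly spread around a value close to 0. Their log2 ratios of crosslinked pull-down over crosslinked input ran from -0.30 to 0.75 with a median of 0.10, beside a median of -0.22 over all genes tested. TMM factors moved the median of all genes to -0.00033 and that of the members to 0.32, and then 317 genes in all were called higher and 21 lower, in place of 286 and 367. Without such factors, values above 0 were found in 42 of 61 members and in 24.4% of all genes. Among all genes with read numbers in the members' own range the median was -0.21 and 24.8% lay above 0. Standard errors of single members ran from 0.17 to 0.33. No 95% interval of a member reached down to -1, and 8 reached up to 1 or above.

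Pull-downs lay above inputs without overlap in 6 of the 61 genes, beside 7.43% of all genes, and below them without overlap in 8, beside 56.1% of all genes. The 6 were Hist1h3a, Hist1h3f, Hist1h4c, Hist1h4k, Hist2h2ac and Hist2h3b. The 8 were 5 of H2A (Hist1h2ab, Hist1h2ag, Hist1h2ak, Hist1h2ao and Hist1h2ap), Hist1h2bj, Hist1h4m and Hist1h4n. These lists were made by whether values overlapped, not by the rule for named genes, and none of their adjusted p values was below 0.110 (edgeR).

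**Figure D2:**
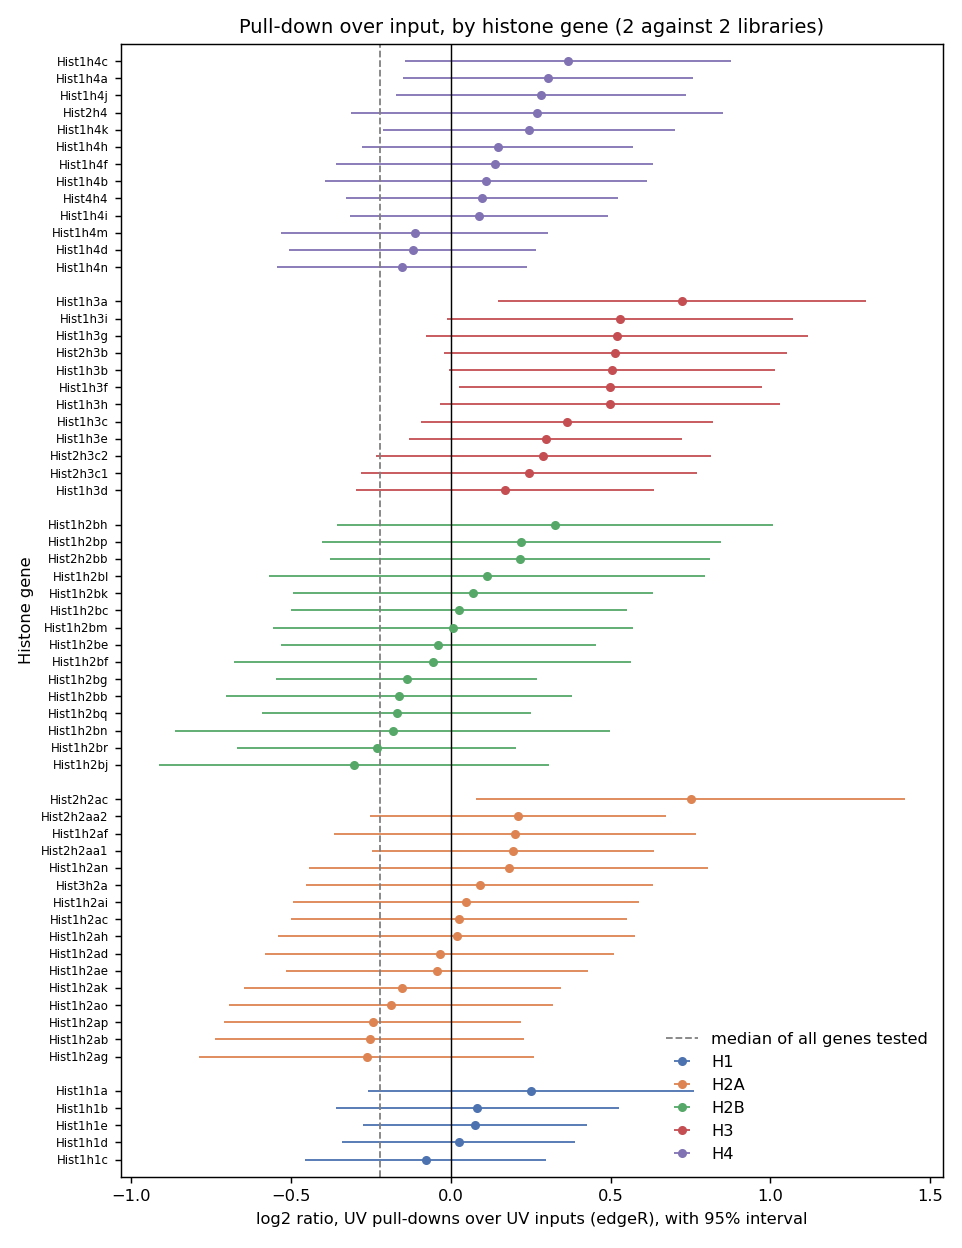
Fitted log2 ratio of crosslinked pull-downs over crosslinked inputs (horizontal axis) for the 61 tested histone genes (vertical axis), with points for the edgeR ratio, lines for its 95% interval and colours for the family. All 12 H3 genes lie to the right of 0, the other families lie on both sides of it, and the dashed line marks the median of all genes at -0.22.

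All 12 H3 genes had a ratio above 0, from 0.17 to 0.72 with a median of 0.50, and none was called. Without pull-down 2, 8 of the 12 were above 0, with a median of 0.06, and Hist1h3d, Hist1h3e, Hist2h3c1 and Hist2h3c2 had -0.16, -0.07, -0.12 and -0.05. Hist1h3a (chromosome 13, 23761885 to 23762386) had 2.67 and 2.62 RPM in crosslinked inputs 1 and 2, 2.69 and 5.55 RPM in crosslinked pull-downs 1 and 2, and 2.64 and 2.22 RPM in the non-crosslinked input and pull-down. Pull-down 1 lay just above the inputs and pull-down 2 far above them. Its log2 ratio was 0.72 (SE 0.28, 95% interval 0.15 to 1.299) with an adjusted p of 0.110 (edgeR). Without pull-down 1 the ratio was 1.17 and was called (adjusted p = 0.00869, edgeR), and without pull-down 2 it was 0.09.

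Hist1h3e (chromosome 13, 23561475 to 23562385), the H3 gene with the most reads, had 5.78 and 5.10 RPM in the crosslinked inputs, 4.88 and 7.63 RPM in the pull-downs, and 5.52 and 4.10 RPM without crosslinking. Its pull-downs lay on both sides of the inputs, and its log2 ratio was 0.30 (SE 0.20, adjusted p = 0.374, edgeR). Hist1h3c had 3.72 and 3.69 RPM in the inputs against 3.60 and 5.38 RPM in the pull-downs, with a log2 ratio of 0.36 that was 0.03 without pull-down 2. Hist1h3d, with the lowest H3 ratio of 0.17, had 3.89 and 3.56 RPM in the inputs against 3.18 and 4.76 RPM in the pull-downs. In each of the 3 genes pull-down 1 lay below both inputs and pull-down 2 above both.

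H3 genes lie on both chromosomes with large clusters. The 9 on chromosome 13 had a median log2 ratio of 0.50 and the 3 on chromosome 3 had one of 0.29. Of the chromosome 3 genes, Hist2h3b had 1.82 and 2.195 RPM in the inputs and 2.34 and 3.05 RPM in the pull-downs, so its groups did not overlap. Its log2 ratio was 0.51 (SE 0.26, adjusted p = 0.215, edgeR), and it was 0.31 without pull-down 2 and 0.70 without pull-down 1.

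H4 genes had the highest levels per length among the core histones and ratios on both sides of 0. Their median over the 4 crosslinked libraries was 8.48 RPM per kilobase of gene, beside 6.26 for H3, 5.02 for H2A and 3.35 for H2B, over the genes whose RefSeq model matched and has no intron. This leaves out 5 of the 18 H2B genes, Hist1h2br and Hist1h2bq among them, and Hist1h2ap. Ratios ran from -0.15 to 0.37, with 10 of 13 above 0, and all 13 with TMM factors. Hist1h4c (chromosome 13, 23698084 to 23698458) had the highest, with 2.54 and 2.51 RPM in the crosslinked inputs, 2.57 and 3.54 RPM in the pull-downs, and 2.93 and 1.77 RPM in the non-crosslinked input and pull-down. Its log2 ratio was 0.37 (SE 0.24, adjusted p = 0.358, edgeR), and its groups did not overlap. Without pull-down 2 it was 0.10, and without pull-down 1 it was 0.60.

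Hist1h4n (chromosome 13, 21831792 to 21832197) had the lowest H4 ratio. It stood at 5.94 and 6.12 RPM in the crosslinked inputs, 4.46 and 5.72 RPM in the pull-downs, and 6.35 and 3.33 RPM without crosslinking, and both pull-downs lay below both inputs (log2 ratio -0.15, SE 0.19). Hist1h4d, the H4 gene with the most reads, had 7.33 and 6.22 RPM in the inputs and 5.08 and 6.65 RPM in the pull-downs, with a log2 ratio of -0.12. Hist1h4h had 5.58 and 4.82 RPM against 4.35 and 6.47 RPM, with a log2 ratio of 0.15. The groups of the last 2 genes overlapped.

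H2A genes held both the highest ratio of any member and a group of values below 0. Hist2h2ac (chromosome 3, 96220413 to 96220880) had 1.22 and 0.979 RPM in the crosslinked inputs, 1.28 and 2.14 RPM in the pull-downs, and 0.654 and 0.884 RPM without crosslinking. The pull-downs were the 2 highest of the 4 values, at read numbers of 21.3 and 18.03 in the inputs and 20.6 and 33.8 in the pull-downs. Its log2 ratio was 0.75 (SE 0.32, 95% interval 0.08 to 1.42, adjusted p = 0.151, edgeR). It was 0.34 without pull-down 2 and 1.08 without pull-down 1 (adjusted p = 0.0782, edgeR).

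Hist1h2ag (chromosome 13, 22042478 to 22042949) had the lowest H2A ratio, with 2.98 and 2.74 RPM in the inputs and 1.88 and 2.59 RPM in the pull-downs. Its log2 ratio was -0.26 (SE 0.25, adjusted p = 0.541, edgeR), and it was -0.03 without pull-down 1 and -0.53 without pull-down 2. Hist1h2ap had 4.08 and 4.23 RPM in the inputs against 2.64 and 3.90 RPM in the pull-downs, with a log2 ratio of -0.24. In both genes the pull-downs lay below the inputs without overlap. Hist1h2ae had 4.43 and 3.60 RPM against 2.89 and 4.33 RPM, and its groups overlapped (log2 ratio -0.04).

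Hist2h2aa1 and Hist2h2aa2, neighbouring copies of an H2A gene on chromosome 3, had nearly the same values, since shared reads were split between them. Their counts differed by whole reads in every library, by between 2 and 12 reads. Hist2h2aa1 had 3.67 and 3.89 RPM in the crosslinked inputs and 3.53 and 4.61 RPM in the pull-downs, with a log2 ratio of 0.19 (SE 0.21). Hist2h2aa2 had 2.98 and 3.56 RPM in the inputs and 3.22 and 3.91 RPM in the pull-downs, with a log2 ratio of 0.21 (SE 0.22). Their values are therefore not independent of each other.

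H2B genes lay on both sides of 0, with a median log2 ratio of -0.04 and 7 of 15 above 0. With exon features only the median was 0.007 and 8 of 15 were above 0. Hist1h2bh (chromosome 13, 23542923 to 23543444) had the highest ratio, 0.33 (SE 0.33, adjusted p = 0.558, edgeR), from 1.25 and 0.974 RPM in the inputs and 1.04 and 1.59 RPM in the pull-downs. Hist1h2bj had the lowest, -0.30 (SE 0.29, adjusted p = 0.545, edgeR), from 1.81 RPM in both inputs and 1.10 and 1.66 RPM in the pull-downs. Its ratio was -0.04 without pull-down 1 and -0.62 without pull-down 2. The 3 H2B genes with the most reads all had ratios below 0. Hist1h2br had 6.03 and 5.38 RPM in the inputs against 3.54 and 5.57 RPM in the pull-downs (log2 ratio -0.23).

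Hist1h2bg had 5.54 and 4.91 RPM against 3.94 and 4.97 RPM (log2 ratio -0.14), and Hist1h2bq had 5.30 and 4.89 RPM against 3.58 and 4.96 RPM (log2 ratio -0.17). In all 3 genes pull-down 1 was the lowest of the 4 crosslinked libraries. The ratios of Hist1h2bg and Hist1h2bq were above 0 with TMM factors. Hist1h2bq and Hist1h2br each held a pre-mRNA feature with the same counts, 16.5 and 13 reads in the inputs and 3.5 and 6 in the pull-downs. Their exon features, fitted singly, had log2 ratios of 0.05, -0.04 and -0.04 for Hist1h2bq and -0.21, -0.06 and 0.05 for Hist1h2br.

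Of the linker histones, Hist1h1c, Hist1h1d and Hist1h1e carried most of the H1 reads. Hist1h1c (chromosome 13, 23738807 to 23739531), the member with the most reads per length at 16.9 RPM per kilobase, had 11.8 and 14.0 RPM in the crosslinked inputs, 9.63 and 13.4 RPM in the pull-downs, and 11.6 and 8.69 RPM without crosslinking. Its groups overlapped, with a log2 ratio of -0.08 (SE 0.18, 95% interval -0.46 to 0.30). Hist1h1d had 10.2 and 11.9 RPM in the inputs against 9.09 and 12.0 RPM in the pull-downs, with a log2 ratio of 0.03.

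Hist1h1e varied little, with 7.67 and 8.58 RPM in the inputs, 7.66 and 8.44 RPM in the pull-downs and a log2 ratio of 0.08 (SE 0.17). Hist1h1a had the highest H1 ratio, 0.25 (SE 0.24, adjusted p = 0.547, edgeR), from 4.18 and 3.96 RPM in the inputs and 3.13 and 6.02 RPM in the pull-downs. Its pull-downs lay on both sides of the inputs. The signs of Hist1h1c, Hist1h1d and Hist1h1e each turned under another scaling.

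The 2 crosslinked pull-downs did not give the same picture of these genes. Pull-down 2 stood above pull-down 1 in 59 of the 61 tested members, with a median log2 ratio on the RPM + 1 scale of 0.40, whereas over all genes it stood above in 49.9% with a median of -0.0011. By family this was so for all 16 H2A, all 15 H2B and all 12 H3 genes, 12 of 13 H4 genes and 4 of 5 H1 genes. The members' medians were -0.23 for pull-down 1 over input 1 and 0.22 for pull-down 2 over input 2, beside -0.30 and -0.17 over all genes. The crosslinked inputs differed less, with a member median of -0.07 for input 2 over input 1.

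In 41 of the 61 genes the ratio was below 0 in pair 1 and above 0 in pair 2. It was above 0 in both pairs in 8 genes, 4 of them of H3, and below 0 in both in 12. Without pull-down 2 the members' median fitted log2 ratio was -0.18, beside -0.25 over all genes, and without pull-down 1 it was 0.34, beside -0.21 over all genes. Gtsf1 also stood higher in pull-down 2, at 245 against 117 RPM. Pull-down 2 stood above pull-down 1 in 16 of 19 S-phase genes and 70 of 81 ribosomal protein genes, in 11 of 15 genes of histone mRNA processing and transcription, and in 5 of 11 replication-independent histone genes. The part of these differences between libraries in the histone values was not tested.

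**Figure D3:**
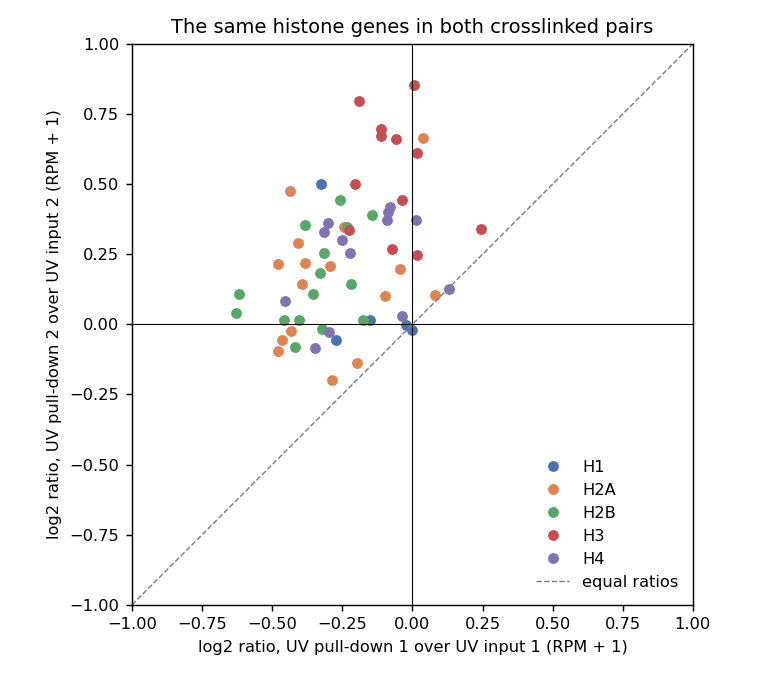
Log2 ratio of pull-down 1 over input 1 (horizontal axis) and of pull-down 2 over input 2 (vertical axis), both crosslinked and on the RPM + 1 scale, with 1 point for each of the 61 tested histone genes, coloured by family. Points above the dashed line have a higher ratio in pair 2, which was the case for 59 genes, and the upper left field holds the 41 genes with opposite signs.

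Without crosslinking, most histone genes made up a smaller share of all reads on the beads than in the lysate, as measured in 1 pair of libraries, and this turned with the denominator. On the RPM + 1 scale 54 of the 61 members had a ratio below 0, with a median of -0.26, beside 79.3% and -0.31 over all genes. H4 genes had the lowest, 13 of 13 below 0 with a median of -0.50, and H3 genes were below 0 in 12 of 12 with a median of -0.25. H1 genes had a median of -0.01. Counted among annotated reads without ribosomal RNA, 18 of the 61 members were below 0, with a median of 0.12, beside 46.4% and 0.05 over all genes. On that scale H4 genes were below 0 in 9 of 13 and H3 genes in 1 of 12. Among single genes Hist4h4 (chromosome 6, 136803993 to 136804431), an H4 gene outside the large clusters, had the lowest ratio, with 3.96 RPM before and 1.71 RPM after the pull-down.

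Per all reads, the crosslinked ratio exceeded the non-crosslinked ratio for every H3 and H4 gene. On the RPM + 1 scale, with the mean of the 2 crosslinked pairs, this was so for 12 of 12 H3 and 13 of 13 H4 genes, 13 of 15 H2B, 11 of 16 H2A and 3 of 5 H1 genes. Family medians went from -0.25 without crosslinking to 0.29 with it for H3, and from -0.50 to 0.03 for H4. The H1 medians were -0.01 in both. Among annotated reads without ribosomal RNA the crosslinked ratio was the higher for 11 of 12 H3 and 12 of 13 H4 genes, 6 of 15 H2B, 5 of 16 H2A and 0 of 5 H1 genes, beside 38.0% of all genes (60.3% per all reads). All these comparisons rest on the same non-crosslinked pair.

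**Figure D4:**
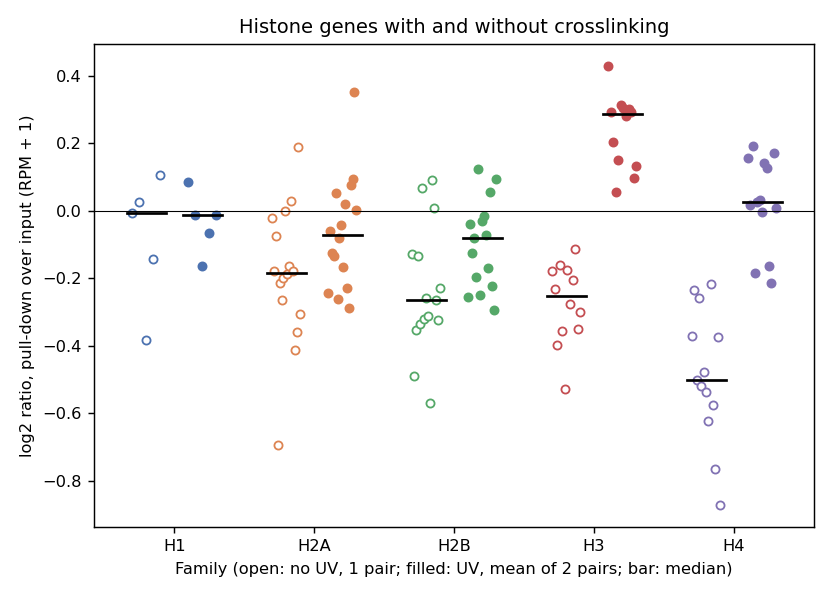
Log2 ratio of pull-down over input on the RPM + 1 scale (vertical axis) for the 61 tested histone genes by family (horizontal axis). Open points are the single non-crosslinked pair, filled points the mean of the 2 crosslinked pairs, and bars the medians, which differ most between the 2 conditions for H3 and H4.

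The difference between the crosslinked and the non-crosslinked ratio was tested as an interaction in 1 edgeR fit of all 6 libraries, in which the lone non-crosslinked libraries were assumed to vary like the crosslinked pairs. Of the 61 members 0 were called higher and 0 lower, beside 0.0241% and 0.229% of all genes. At an unadjusted p below 0.05, 4 were higher, beside 5.81% of all genes, and 0 were lower, beside 1.96%. The members' median difference was 0.44 on the log2 scale, beside 0.14 over all genes, and it was above 0 in 51 of 61 members against 61.2% of all genes.

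The 4 genes were Hist4h4, Hist1h3f, Hist1h4j and Hist1h4c, and they are named for this p. Hist4h4 stood at 6.02 and 4.14 RPM in the crosslinked inputs and 4.63 and 5.47 RPM in the crosslinked pull-downs, against the 3.96 and 1.71 RPM without crosslinking. Its interaction was 1.23 (SE 0.44, adjusted p = 0.489, edgeR), and it came with a crosslinked ratio of 0.10, which ran from -0.14 to 0.37 when single libraries were left out. Hist1h3f had an interaction of 1.13 (SE 0.46), from 3.38 and 2.78 RPM in the crosslinked inputs, 3.42 and 4.77 RPM in the pull-downs, and 3.07 and 1.82 RPM without crosslinking.

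Hist1h4j had an interaction of 1.02 and Hist1h4c one of 0.99, with adjusted p values of 0.549 and 0.642 (edgeR). For the summed families the interaction was 0.71 for H3 (SE 0.37, adjusted p = 0.657, edgeR) and 0.64 for H4 (SE 0.34, adjusted p = 0.685, edgeR). It was 0.08 for H1, 0.18 for H2A and 0.26 for H2B. These differences were not resolved from 0 with 1 non-crosslinked pair.

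The genes were also summed by position. The 22 genes of the first block on chromosome 13 summed to 70.3 and 66.8 RPM in the crosslinked inputs and 54.3 and 76.3 RPM in the pull-downs. The 31 of the second block summed to 120 and 116 RPM against 98.0 and 142 RPM. The 10 genes on chromosome 3 summed to 21.1 and 20.7 RPM against 21.4 and 27.1 RPM, and were the one block whose groups did not overlap, with the pull-downs higher. The log2 differences were -0.09, 0.00 and 0.20 in that order, with no test of their difference.

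Single exons gave the same count as whole genes. Of the 86 features 68 were tested among 39872 features of all classes, and 0 were called in either direction (edgeR), beside 6.44% of all features called higher and 3.5% called lower. At an unadjusted p below 0.05 there were 2, the exons of Hist2h2ac and Hist2h3b, both higher, beside 8.42% of all features higher and 14.4% lower at that p. Intron, piRNA cluster and pseudogene features that carry histone names lie outside the rule. The 10 intron features summed to 2.08 and 1.28 RPM in the crosslinked inputs and 1.59 and 1.74 RPM in the pull-downs, and the 5 piRNA cluster features to 1.26 and 0.869 RPM against 0.931 and 1.295 RPM, so that both sets of libraries overlapped.

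How reads were split among copies limits what a single gene shows. Of the 402 gene values in the 6 libraries, 14 were whole numbers of reads (within 1e-06), and no gene had whole reads in all 6 libraries. The H4 sum was whole in 5 of the 6 libraries, at 738, 984, 919, 439 and 760 reads, so nearly all fractions of H4 reads added up within the family. Its values for single genes thus share reads with one another, and the family sum is the better determined quantity. The same copies make the genes of a family unlike independent replicates.

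Other histone genes and genes of histone mRNA metabolism were compared from lists. Replication-independent histones, whose mRNAs mostly carry poly(A) tails, had 11 tested genes with a median log2 ratio of -0.14, 0 called higher and 1 lower. The gene called was H3f3a, which encodes the variant H3.3. It stood at 17.5 and 15.2 RPM in the crosslinked inputs, 9.22 and 10.5 RPM in crosslinked pull-downs 1 and 2, and 19.5 and 7.78 RPM in the non-crosslinked input and pull-down. It fell by 0.63 on the log2 scale (SE 0.17, adjusted p = 0.0226, edgeR), was lower without crosslinking too, and was not called with TMM factors or without any of input 1, pull-down 1 or pull-down 2. H3f3b, which encodes the same protein, had 18.8 and 13.8 RPM in the inputs against 13.6 and 14.0 RPM in the pull-downs (log2 ratio -0.14, adjusted p = 0.631, edgeR).

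Among 15 tested genes of histone mRNA processing and histone transcription, 0 were called in either direction, with a median of -0.26. Wdr33 and Fip1l1, both of the cleavage and polyadenylation machinery, had log2 ratios of -0.35 and 0.06. Of 19 tested S-phase genes with polyadenylated mRNA 0 were called, with a median of -0.23, and the helicase subunits Mcm2 and Mcm7 had -0.23 and 0.01. Of 81 tested ribosomal protein genes 2 were called higher and 13 lower, with a median of -0.34. With TMM factors 3 were called higher and 3 lower, and without input 1 or pull-down 1 the count lower was 3. Rpl12 fell by 0.66 (adjusted p = 0.0403, edgeR) and Rpl7a rose by 0.69 (adjusted p = 0.0449, edgeR). Rpl6 fell by 1.20 (adjusted p = 0.000330, edgeR) and Rpl4 had -0.41 (adjusted p = 0.211, edgeR). The histone median of 0.10 lay above the medians of all 4 lists. In pair 1 the histone median was -0.23 on the RPM + 1 scale, beside -0.22, -0.35, -0.38 and -0.63 for the lists in the order given. In pair 2 it was 0.22, beside -0.10, -0.19, -0.06 and -0.11.

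The authors' deposited table lists 1 enrichment ratio per feature over the whole series, with no statement of how libraries were combined. In the authors' deposited table, 72 histone features of 65 genes had a median ratio of 1.45, from 0.689 to 2.60, and 64 were above 1. The authors' deposited table has a median of 1.27 over all exon and pre-mRNA features and 1.37 over all features. By family its medians were 2.11 for H3, 1.64 for H4, 1.35 for H2B, 1.23 for H1 and 1.21 for H2A in the authors' deposited table. H3 and H4 come first in that order, as they do in the medians of the fitted ratios at 0.50 and 0.14. H2B comes next in the deposited order, but its fitted median of -0.04 was the lowest, below 0.08 for H1 and 0.02 for H2A. Both sets of values describe the same series, so they are not independent of each other.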

How the data were processed

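For each of the 6 libraries the authors deposited expected counts of reads per annotated feature, with reads that matched several features split into fractions, and RPM, the same counts per 1000000 reads of the library. A deposited table of the series gives 1 ratio per feature with no formula. The submitters' processing notes name bcl2fastq 2.19, STAR 2.5.2b, bedtools 2.29.0 and build mm10; removal of PCR duplicates is not given in the sources used here.

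Counts were summed per gene over exon and pre-mRNA features and rounded. The main test was edgeR's quasi-likelihood fit (version 4.0.16, R 4.3.3) over all genes with a mean of at least 1 RPM in the 4 crosslinked libraries, 2 pull-downs against 2 inputs. Library sizes were annotated reads, without scaling factors; reads without annotation (6.99% to 14.4%) stayed out of them. Calls had a Benjamini-Hochberg adjusted p under 0.05. Alternatives used DESeq2 1.42.0, limma 3.58.1 and others given in the closing section, and the fits were tested on simulated data.

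The text names, in each family, the 3 genes with the most reads, those with the highest and lowest ratio, near-identical copies, and any called. From each list it names the 2 with the most reads and, of those called, the ones with the most reads, up to 4 genes in all. Others are named where a count of 6 or fewer singles them out, after their values were seen. The members and lists were chosen with earlier results of these data known.

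Ratios of same-numbered libraries are descriptions. Promoter sequences and coordinates are RefSeq's on GRCm38.p6.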

Additional observations from a re-analysis of the deposited data

How the results depend on the processing

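No histone gene was called in either direction under any alternative except without crosslinked pull-down 1, and the cause was not tested for any change below. Leaving out single crosslinked libraries gave 0 to 1 genes and 0 to 4 features called higher. The gene was Hist1h3a, and it and the features were called only without crosslinked pull-down 1. In those fits the fraction called higher was smaller among members than among all genes, and smaller among histone features than among all features. The share ratio ranged from 0.837 to 1.175. Family log2 differences ranged from -0.25 to 0.13 for H1, -0.35 to 0.15 for H2A, -0.46 to 0.12 for H2B, -0.037 to 0.60 for H3 and -0.17 to 0.16 for H4. Calls lower ranged from 0 to 1 for replication-independent histones, 0 to 1 for histone mRNA processing and 3 to 15 for ribosomal proteins, with 1 to 2 higher in the last. The sign of 42 of the 61 tested members turned without some library. Of these, 16 are named by the rule, and their ratios ranged from -0.31 to 0.66 for Hist1h1a, -0.35 to 0.15 for Hist1h1c, -0.21 to 0.23 for Hist1h1d, -0.015 to 0.17 for Hist1h1e, -0.37 to 0.23 for Hist1h2ae, -0.56 to 0.020 for Hist1h2ap, -0.34 to 0.041 for Hist1h2bg, -0.0030 to 0.60 for Hist1h2bh, -0.43 to 0.054 for Hist1h2bq, -0.61 to 0.071 for Hist1h2br, -0.16 to 0.45 for Hist1h3d, -0.072 to 0.60 for Hist1h3e, -0.34 to 0.073 for Hist1h4d, -0.18 to 0.42 for Hist1h4h, -0.36 to 0.031 for Hist1h4n and -0.022 to 0.39 for Hist2h2aa1. Among the other members it turned for 26, Hist1h2ao, Hist1h4m and Hist4h4 included.

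Per annotated read the family differences were 0.026 for H1 and 0.086 for H4. In edgeR on family sums they were 0.038, 0.012 and 0.096 for H1, H2A and H4, and with TMM factors 0.25, 0.23, 0.17, 0.64 and 0.32 for H1, H2A, H2B, H3 and H4. With the replicate block they were 0.027 for H1 and 0.088 for H4; the block left 0 histone genes called, with a median of 0.10. The labels give same-numbered samples only a shared number, and their deviations had a correlation of 0.0929 over 8308 genes. This cannot decide whether they came from the same lysate, because counting error also lowers such a correlation. The block moved calls over all genes to 295 higher and 511 lower. TMM factors moved the median of all 8308 genes from -0.22 to -0.00033 and left 0 replication-independent and 3 ribosomal protein genes called lower. Over all genes 367 were called lower, but 13 without a filter and with DESeq2, 93 without rRNA in library sizes, 1101 with unannotated reads in them, 1087 with limma, 154 in exons alone and 44 to 557 without single libraries. With TMM factors and DESeq2 respectively the ratios were 0.13 and 0.13 for Hist1h1c, 0.18 and 0.18 for Hist1h2ae, 0.081 and 0.080 for Hist1h2bg, 0.050 and 0.049 for Hist1h2bq, 0.10 and 0.10 for Hist1h4d and 0.064 and 0.062 for Hist1h4n. Without rRNA in library sizes Hist1h1c had 0.027 and Hist1h2ae 0.068. With unannotated reads in library sizes, and in limma, Hist1h1d had -0.066 and -0.067 and Hist1h1e -0.015 and -0.011. A fit of pre-mRNA features alone held no histone gene above the filter, so it gave no value. Among the members, log2 ratios as large as 0.75 (Hist2h2ac, SE 0.32), and interactions as large as 1.23 (Hist4h4), did not pass the adjusted threshold. In the gene level fit H3f3a passed it at -0.63 (SE 0.17).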
